A study of Mus musculus with 31 samples.

Results

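Transcripts of 7 receptors that bind chemokines, chemerin or short-chain fatty acids were followed through 4 cell types sorted from mouse hearts. The genes are Ccr1, Ccr2, Cx3cr1, Cxcr4, Ccrl2, Cmklr1 and Ffar2. They were taken by symbol from a count table of 24421 gene symbols in 31 libraries. All 7 were found, and all 7 passed the filter on low counts. The study asked, per its title, whether myocardial infarction primes self-reactive T cells by way of dendritic cells. Myocardial infarction (MI) groups came from Balb/c mice aged 8 to 12 weeks whose left anterior descending coronary artery had been ligated for good. Steady state (SS) groups came from hearts of Balb/c mice of the same age range with no infarction. No other allele or agent is named for either state, and the labels speak of no sham operation. In each state the sorted cells were CD11c-negative monocyte-derived cells (labelled MF, here macrophages), CD11c-positive monocyte-derived cells (moDC), and the conventional dendritic cells cDC1 and cDC2. Each of the 8 groups had 4 libraries, except MI cDC2 with 3. No source used here gives the time after ligation, or says whether a library came from 1 heart or from pooled hearts, and p-values therefore measure the spread between these samples.

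The chemokine receptors among them are G protein-coupled receptors that read a ligand gradient and turn the cell toward its source. CCR2 binds the monocyte chemokines CCL2, CCL7 and CCL12. It is needed for classical monocytes to leave the bone marrow, and in the heart its presence is commonly used to tell macrophages renewed from blood monocytes from long-lived resident ones. CX3CR1 binds membrane-bound fractalkine and is a mark of monocytes and many tissue macrophages, while CXCR4 binds CXCL12 and holds leukocytes in the bone marrow and other niches. CMKLR1 is the signalling receptor for chemerin, and CCRL2 binds chemerin without signalling of its own and presents it to other cells.

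Libraries held 9148624 to 16531349 reads in genes. Levels are CPM, read counts scaled to the adjusted total of their library, and averages are given as mean ± SD. Within each state the cDC1, cDC2 and macrophage marker lists were highest in their own sorts, but the cDC2 and macrophage lists were shared with other sorts. The cDC1 marker Xcr1 lay at 909 to 1039 CPM in MI cDC1 and 789 to 1039 CPM in SS cDC1, and at no more than 5.20 CPM in any library of the other 3 cell types. Cd209a, a cDC2 marker, lay at 2023 to 2765 CPM in MI cDC2 and 1844 to 2474 CPM in SS cDC2. The 10 macrophage markers summed to 13091 to 16664 CPM in MI macrophages and 15960 to 21228 CPM in SS macrophages. In moDC they summed to 5347 to 6681 CPM in MI and 5890 to 13547 CPM in SS, which reached the MI macrophage range. The 6 cDC2 markers summed to 4454 to 6119 CPM in cDC2 libraries and 2413 to 3273 CPM in macrophages and moDC. In SS the libraries numbered 1 and 4 had 11.6% to 16.9% of reads in no gene, and those numbered 2 and 3 had 6.42% to 9.26%. These are bulk libraries, in which fewer cells of a type and less RNA per cell cannot be told apart.

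After infarction the receptors that passed the test rose in every case, and the macrophages had more of them than the other 3 cell types. In macrophages Ccr2, Cxcr4 and Ccrl2 rose, which is 3 of 7 members, where 7.39% of all 13039 genes tested changed and 4.01% rose. In moDC only Ccr2 rose, 1 of 7, where 4.84% of all genes changed and 1.52% rose. In cDC1 only Ccr2 rose, 1 of 7, where 8.87% of all genes changed and 2.16% rose. In cDC2 only Ffar2, the receptor for short-chain fatty acids, rose, 1 of 7, where 11% of all genes changed and 4.41% rose. None of the 7 fell past the threshold in any cell type. The members were chosen with earlier results of these data known, so their shares, here and below, are no test against those of all genes. The median log2 change of the members was 0.53 in macrophages, 0.14 in moDC, -0.75 in cDC1 and 0.16 in cDC2, where the median over all genes tested was -0.03 in each. Without Ffar2, which had 0 reads in macrophages of both states, the macrophage median was 0.69, and with Cmklr1 at its bound of 3 reads in MI cDC1 the cDC1 median was -0.67. The cDC1 median of -0.75 was the value of Ffar2 itself, from 3 reads in MI and 6 in SS, and describes no fall of the set. The members well detected in cDC1 changed by 0.58 (Ccr2), 0.34 (Cxcr4) and -0.17 (Ccrl2). Ccr1 (-1.67), Cx3cr1 (-1.72) and Cmklr1 (-3.37) had low counts there. The test was edgeR's quasi-likelihood test in one model of all 31 libraries, with p-values adjusted by the Benjamini-Hochberg method over all genes tested and a threshold of 0.05.

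**Figure D1:**
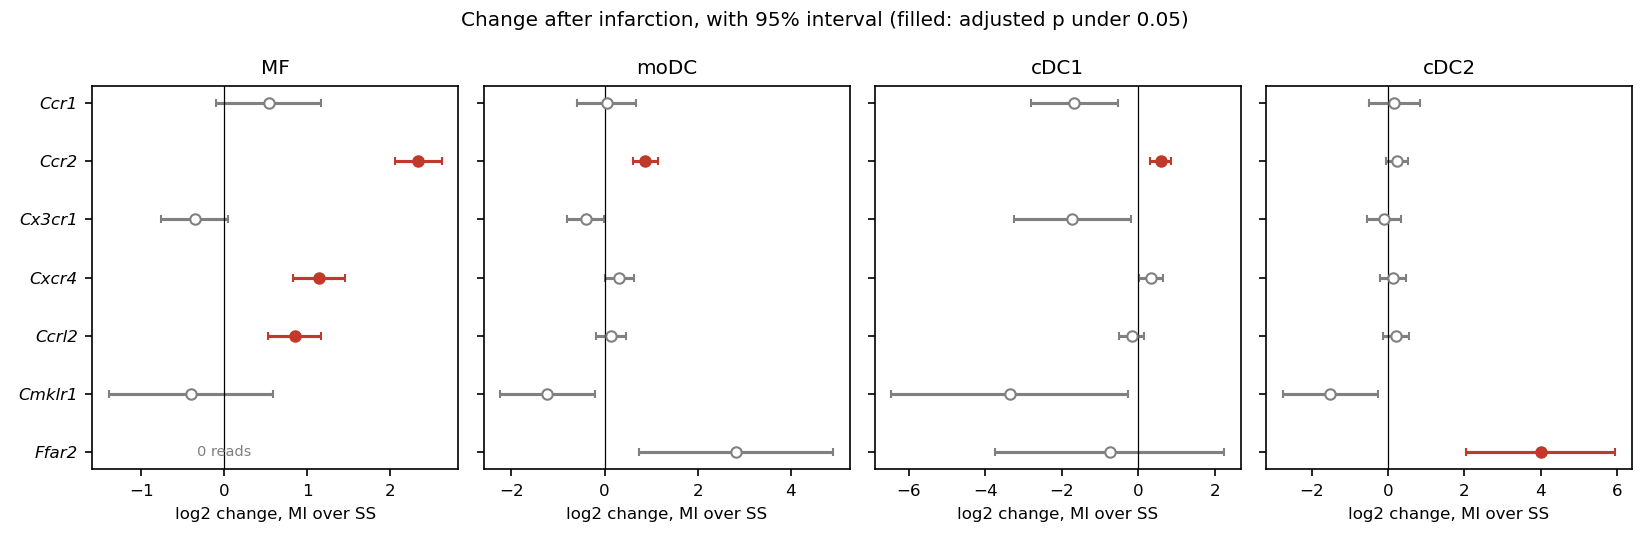
Change of each receptor after infarction on the log2 scale (MI over SS) in the 4 cell types, with the 95% interval of the fitted change. Filled red points passed the test, and each panel has its own horizontal scale. Ccr2 lies furthest right in macrophages (2.34), is smaller in moDC (0.88) and cDC1 (0.58), and its interval spans 0 in cDC2. Ffar2 had 0 reads in macrophages of both states.

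The 4 genes that rose are shown here with the 250 bases before their start of transcription, so that their proximal promoters can be compared. Sequences are from RefSeq on GRCm38.p6, 5′ to 3′ on the gene's own strand, with matches to any of 5 motifs in capitals. The Ccr2 window is chr9:124101933-124102182 on the plus strand, and the Cxcr4 window is chr1:128592300-128592549 on the minus strand. GENCODE M21 starts the Ccr2 gene at 124101950, so most of the Ccr2 window, with its marked match, lies inside the gene by that annotation. The Ccrl2 window, before the most upstream of 3 listed starts, is chr9:111057519-111057768 on the minus strand, and the Ffar2 window, before the most upstream of 4, is chr7:30823776-30824025 on the minus strand.
Ccr2: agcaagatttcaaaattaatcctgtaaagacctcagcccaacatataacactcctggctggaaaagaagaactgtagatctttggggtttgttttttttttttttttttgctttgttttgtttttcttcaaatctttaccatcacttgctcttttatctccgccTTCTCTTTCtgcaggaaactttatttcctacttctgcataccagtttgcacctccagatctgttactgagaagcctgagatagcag
Cxcr4: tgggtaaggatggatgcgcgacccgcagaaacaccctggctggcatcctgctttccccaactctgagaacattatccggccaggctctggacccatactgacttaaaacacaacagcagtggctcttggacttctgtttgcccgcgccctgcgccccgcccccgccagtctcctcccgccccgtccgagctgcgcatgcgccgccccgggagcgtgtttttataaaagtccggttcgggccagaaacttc
Ccrl2: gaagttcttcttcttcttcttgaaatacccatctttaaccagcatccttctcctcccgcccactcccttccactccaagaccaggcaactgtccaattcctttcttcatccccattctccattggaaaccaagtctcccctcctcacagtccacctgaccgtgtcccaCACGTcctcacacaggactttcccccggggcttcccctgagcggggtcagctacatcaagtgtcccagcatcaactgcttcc
Ffar2: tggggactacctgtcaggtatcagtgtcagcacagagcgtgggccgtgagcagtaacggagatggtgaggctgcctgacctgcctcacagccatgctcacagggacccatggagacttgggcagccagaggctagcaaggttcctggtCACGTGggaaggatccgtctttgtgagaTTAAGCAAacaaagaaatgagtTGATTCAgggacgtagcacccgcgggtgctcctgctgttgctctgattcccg
The motifs were GAGGAA (PU.1 and other ETS factors), ACGTG (the core of the hypoxia response element), TGANTCA (AP-1), TTGCNNAA (C/EBP) and GAAANNGAA (IRF), searched on both strands. Ccr2 held 1 match, to the IRF letters on the minus strand, 86 to 78 bases before the start. Cxcr4 held none. Ccrl2 held 1 ACGTG match, and Ffar2 held a C/EBP match, an AP-1 match and a pair of overlapping ACGTG matches that spell a palindrome. Of 27025 RefSeq promoters of the same length, 23.1% held GAGGAA, 16.5% ACGTG, 6.85% TGANTCA, 9.55% TTGCNNAA and 7.16% GAAANNGAA. Of the 3 members that did not pass the test, Ccr1 and Cmklr1 held 1 GAGGAA match each, Cmklr1 also a pair of overlapping ACGTG matches, and Cx3cr1 none. These matches describe letters in the window and show no binding.

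Ccr2 was the receptor with the largest response in macrophages. It had 2360, 2168, 2192 and 1775 CPM in MI macrophages, against 332, 423, 445 and 481 CPM in SS macrophages. The groups did not overlap, and the lowest MI library stood above the highest SS library by a wide margin. The mean was 2124 ± 247 CPM in MI macrophages and 420 ± 63.4 CPM in SS macrophages (SD, n = 4 each), a 5.06-fold rise (log2 2.34 ± 0.14 SE, adjusted p = 1.99e-13 by edgeR). Leaving out any 1 library of either group gave log2 changes between 2.24 and 2.43.

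In moDC, Ccr2 had 3325, 2744, 2826 and 2413 CPM after MI, against 1509, 1344, 1830 and 1482 CPM in SS. The groups did not overlap. The rise was 1.83-fold (log2 0.88 ± 0.13 SE, adjusted p = 4.23e-05 by edgeR). Between the same groups the 10 macrophage markers summed to 5347 to 6681 CPM in MI and 5890 to 13547 CPM in SS. The 6 classical monocyte markers summed to 208 to 294 CPM in MI moDC and 411 to 1274 CPM in SS moDC. The 5 markers shared by dendritic cells were higher in MI moDC without overlap, at 543 to 757 CPM against 255 to 539 CPM in SS. The 6 dissociation and stress genes were lower without overlap, at 5115 to 6260 CPM in MI moDC and 6903 to 15844 CPM in SS moDC. The part of such cells and of the stress genes in the moDC changes was not tested. In cDC1, Ccr2 had 2076, 2392, 2497 and 2499 CPM after MI, against 1667, 1289, 1616 and 1761 CPM in SS, again without overlap. The cDC1 rise was 1.49-fold (log2 0.58 ± 0.13 SE, adjusted p = 0.00339 by edgeR), and it did not pass against SS replicates 1 and 4 alone (adjusted p = 0.0778 by edgeR). In cDC2, Ccr2 had 1981, 2024 and 2439 CPM after MI, against 1607, 1771, 1728 and 2245 CPM in SS. These values overlapped, and the difference did not pass (log2 0.23, 95% interval -0.06 to 0.51, adjusted p = 0.335 by edgeR).

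The MI effect on Ccr2 differed among the 4 cell types (adjusted p = 1.77e-08 by edgeR's F test), one of 3 members for which it did, where 6.8% of all genes did. The effect was smaller than in macrophages by 1.46 on the log2 scale in moDC (adjusted p = 3.69e-05 by edgeR), by 2.11 in cDC2 (adjusted p = 1.70e-08) and by 1.76 in cDC1 (adjusted p = 1.76e-07). Among moDC, cDC1 and cDC2 no pair passed a test of the difference (adjusted p between 0.119 and 0.618 by edgeR). These contrasts share the same macrophage libraries.

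The order of Ccr2 means differed between the states. In SS the order of means was cDC2 (1838 ± 280 CPM), cDC1 (1583 ± 205 CPM), moDC (1541 ± 206 CPM) and macrophages (420 ± 63.4 CPM). Among the first 3 no pair passed, and moDC stood 3.67-fold above macrophages (adjusted p = 1.73e-11 by edgeR). In MI the order was moDC (2827 ± 377 CPM), cDC1 (2366 ± 200 CPM), cDC2 (2148 ± 253 CPM) and macrophages (2124 ± 247 CPM). There, the pair of moDC and macrophages passed, with moDC 1.33-fold higher (adjusted p = 0.0368 by edgeR). That call was lost without the filter on low counts (adjusted p = 0.0515) and without any one of MI moDC replicates 1, 2 and 3 or MI macrophage replicates 2, 3 and 4 (adjusted p between 0.0684 and 0.174). The other pairs missed the threshold. Of these, cDC2 over moDC (log2 -0.40, adjusted p = 0.0751 by edgeR) passed with DESeq2 (adjusted p = 0.0428), with a replicate block within state (adjusted p = 0.0225) and with only the groups compared (adjusted p = 0.0234). With only the groups compared, cDC1 over moDC (log2 -0.27) passed as well (adjusted p = 0.0311 by edgeR).

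**Figure D2:**
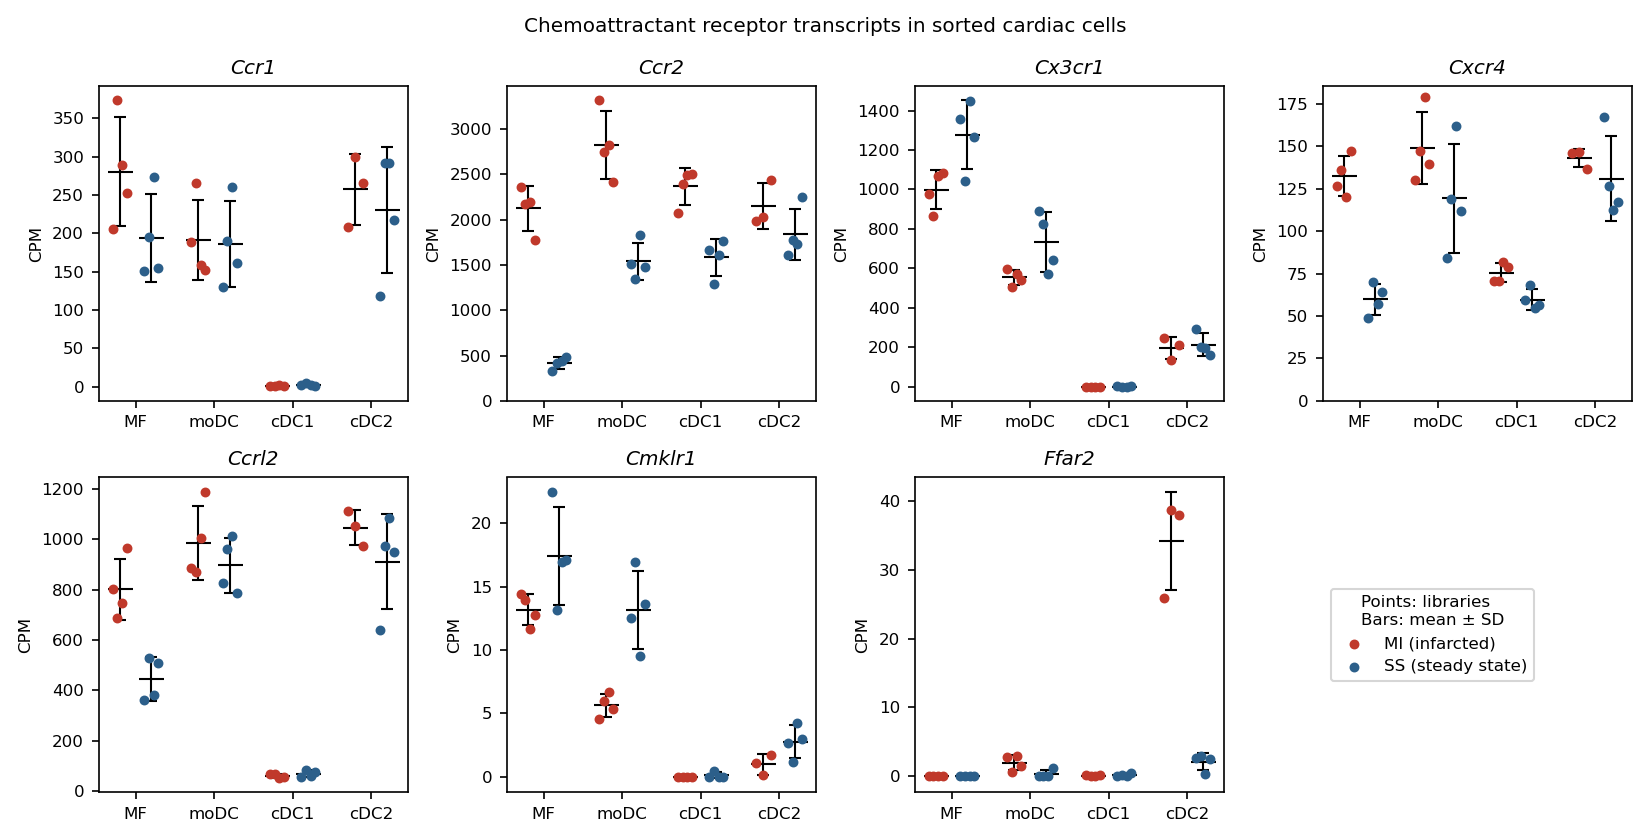
CPM of the 7 receptors in each of 31 libraries, with mean ± SD, in infarcted (red, left) and steady-state (blue, right) hearts for each cell type. Ccr2 in SS macrophages is the one low set of its panel, Cx3cr1 steps down from macrophages to cDC1, and Ffar2 is high in the 3 MI cDC2 libraries.

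Cx3cr1, the fractalkine receptor gene, differed between cell types, and no change with infarction passed the test in any of them. It had 978, 867, 1067 and 1083 CPM in MI macrophages, against 1355, 1043, 1449 and 1264 CPM in SS macrophages. In moDC it had 598, 505, 569 and 542 CPM after MI, against 893, 827, 569 and 640.5 CPM in SS. In cDC2 it had 246, 137 and 209 CPM after MI, against 294, 199, 197 and 161 CPM in SS. The MI and SS libraries overlapped in all 3 cell types. The differences did not pass in macrophages (log2 -0.36, 95% interval -0.76 to 0.05, adjusted p = 0.322 by edgeR), in moDC (log2 -0.40, adjusted p = 0.270) or in cDC2 (log2 -0.11, adjusted p = 0.815). In cDC1 the gene was near its detection limit, with 5 reads over the 4 MI libraries and 21 reads over the 4 SS libraries.

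Between cell types every step in Cx3cr1 passed, in the same order in both states. Mean levels were 999 ± 99.0 CPM in MI macrophages, 553 ± 39.9 in MI moDC, 197 ± 55.4 in MI cDC2 and 0.123 ± 0.151 in MI cDC1. In SS they were 1278 ± 174, 732 ± 153, 213 ± 57.2 and 0.399 ± 0.301 CPM in the same order of cell types. The moDC level was 1.80-fold lower than the macrophage level in MI (adjusted p = 0.00385 by edgeR) and 1.74-fold lower in SS (adjusted p = 0.00528). The cDC2 level was 2.81-fold below that of moDC in MI (adjusted p = 1.70e-05 by edgeR) and 3.44-fold below it in SS (adjusted p = 2.44e-07). The MI effect on Cx3cr1 was not shown to differ among cell types (adjusted p = 0.572 by edgeR's F test).

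The ratio of Ccr2 to Cx3cr1, taken per kilobase of exon in each library, therefore moved in macrophages. It was 3.02, 3.13, 2.57 and 2.05 in MI macrophages, against 0.307, 0.507, 0.384 and 0.476 in SS macrophages. Every MI macrophage library held more Ccr2 than Cx3cr1 transcript per length, and every SS macrophage library held less. In moDC the ratio was 6.96, 6.80, 6.21 and 5.57 in MI, against 2.12, 2.03, 4.03 and 2.90 in SS, with no overlap. In cDC2 it was 10.1, 18.5 and 14.6 in MI, against 6.83, 11.1, 10.96 and 17.5 in SS, and these values overlapped. The ratio is a description, since it joins the gene tests already given.

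**Figure D3:**
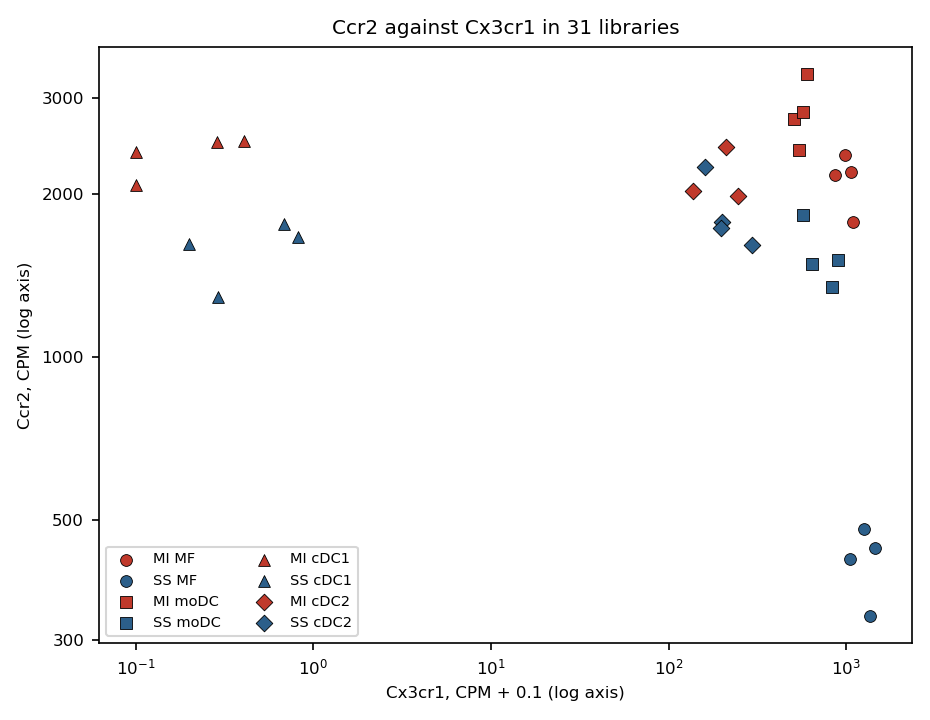
Ccr2 (vertical, CPM, log axis) against Cx3cr1 (horizontal, CPM + 0.1, log axis) in 31 libraries, with MI in red and SS in blue and a symbol for each cell type. The 4 SS macrophage libraries lie alone at the lower right, and the 4 MI macrophage libraries stand above them at 1775 to 2360 CPM of Ccr2. The cDC1 libraries lie at the left edge.

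Cxcr4, the CXCL12 receptor gene, rose in macrophages. It had 127, 136, 120 and 147 CPM in MI macrophages, against 49.0, 70.0, 56.8 and 64.2 CPM in SS macrophages, with no overlap. The rise was 2.21-fold (log2 1.14 ± 0.15 SE, adjusted p = 5.68e-06 by edgeR). In moDC it had 130, 147, 179 and 140 CPM after MI, against 84.4, 119, 162 and 112 CPM in SS. This difference did not pass (log2 0.32, adjusted p = 0.247 by edgeR), though it passed without SS moDC replicate 3, the highest SS library (log2 0.50, adjusted p = 0.0378) and against SS replicates 1 and 4 alone (log2 0.60, adjusted p = 0.0400). In cDC1 it had 70.7, 70.7, 81.9 and 78.9 CPM after MI, against 59.6, 68.5, 54.6 and 56.2 CPM in SS. The cDC1 libraries of the states did not overlap, but the difference of 0.34 on the log2 scale did not pass (adjusted p = 0.189 by edgeR). In cDC2 it averaged 143 ± 5.38 CPM after MI and 131 ± 24.9 CPM in SS (n = 3 and 4), which did not pass (log2 0.13, adjusted p = 0.686 by edgeR).

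The MI effect on Cxcr4 differed among the cell types (adjusted p = 0.00837 by edgeR's F test). It was smaller than in macrophages by 1.01 on the log2 scale in cDC2 (adjusted p = 0.00468 by edgeR) and by 0.80 in cDC1 (adjusted p = 0.0252). The cDC1 difference was lost when any one of 5 libraries was left out (MI cDC1 replicate 2, MI macrophage replicate 4, SS macrophage replicates 1 and 3, SS cDC1 replicate 2), with adjusted p up to 0.0659. In SS, cDC2 (131 CPM) and moDC (119 CPM) were the high pair, with no difference that passed (adjusted p = 0.621 by edgeR). SS cDC1 (59.7 ± 6.22 CPM) and SS macrophages (60.0 ± 9.10 CPM) were the low pair (adjusted p = 0.984). In MI, moDC (149 CPM), cDC2 (143 CPM) and macrophages (132 CPM) showed no difference that passed (adjusted p between 0.547 and 0.908 by edgeR), and cDC1 (75.6 CPM) stood below each of them.

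Ccr1 codes for a receptor of CCL3, CCL5, CCL6 and CCL9. It had 205, 373, 289 and 252 CPM in MI macrophages, against 151, 196, 274 and 154 CPM in SS macrophages. In moDC it had 188, 265, 159 and 153 CPM after MI, against 130, 190, 261 and 161 CPM in SS. In cDC2 it had 208, 299 and 266 CPM after MI, against 119, 292, 292 and 217 CPM in SS. The states overlapped in all 3, and no difference passed (adjusted p = 0.353 in macrophages, 0.974 in moDC and 0.822 in cDC2 by edgeR). In cDC1 it was low, with 0.720, 0.197, 1.86 and 0.410 CPM after MI, against 1.92, 4.93, 2.38 and 1.36 CPM in SS. Those were 33 reads over the MI group and 122 over the SS group, and the difference missed the threshold (log2 -1.67 ± 0.56 SE, adjusted p = 0.0604 by edgeR).

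Ccr1 was 312-fold lower in cDC1 than in cDC2 in MI (adjusted p = 1.30e-13 by edgeR) and 87.6-fold lower in SS (adjusted p = 8.13e-13). Among macrophages, moDC and cDC2 no pair passed in either state (adjusted p between 0.292 and 0.944 by edgeR). Its MI effect was lower by 2.20 on the log2 scale in cDC1 than in macrophages (adjusted p = 0.0469 by edgeR), a call lost in 11 of the 16 fits that left out 1 library of these groups (adjusted p up to 0.163). The F test over the 4 cell types did not pass (adjusted p = 0.148 by edgeR). It passed with DESeq2 (adjusted p = 0.0112), with a replicate block across states (adjusted p = 0.0217) or within state (adjusted p = 0.0244) and without MI cDC1 replicate 3 (adjusted p = 0.0410).

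Ccrl2, the non-signalling chemerin receptor gene, was the third member to rise in macrophages. It had 804, 688, 745 and 967 CPM in MI macrophages, against 364, 528, 380 and 511 CPM in SS macrophages. No MI library fell within the SS range, and the rise was 1.80-fold (log2 0.85 ± 0.16 SE, adjusted p = 5.48e-04 by edgeR). In moDC it had 885, 870, 1004 and 1188 CPM after MI, against 825, 963, 1013 and 786 CPM in SS. In cDC2 it had 1111, 1055 and 974 CPM after MI, against 640, 973, 1083 and 949 CPM in SS. In cDC1 it had 68.1, 66.9, 51.9 and 57.2 CPM after MI, against 54.9, 82.6, 59.6 and 78.0 CPM in SS. The states overlapped in these 3 cell types, with adjusted p of 0.727, 0.506 and 0.626 by edgeR in moDC, cDC2 and cDC1.

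The MI effect on Ccrl2 was lower by 1.02 on the log2 scale in cDC1 than in macrophages (adjusted p = 0.00533 by edgeR) and differed among the 4 types (adjusted p = 0.0161 by edgeR's F test). The F test missed the threshold without SS macrophage replicate 1 (adjusted p = 0.0525). In SS, macrophages held 446 ± 85.7 CPM, below moDC (897 ± 108 CPM, 2.01-fold higher, adjusted p = 2.04e-05 by edgeR) and cDC2 (911 ± 190 CPM). In MI no pair among macrophages (801 ± 120 CPM), moDC (987 ± 147 CPM) and cDC2 (1047 ± 68.6 CPM) passed (adjusted p between 0.0887 and 0.856 by edgeR). The MI cDC2 and MI macrophage libraries did not overlap, and that pair (log2 0.39) passed with a replicate block within state (adjusted p = 0.0156), with only the groups compared (adjusted p = 0.0307) and without MI macrophage replicate 4 (adjusted p = 0.0445). The cDC1 level (61.0 ± 7.80 CPM in MI and 68.8 ± 13.6 CPM in SS) was 13.1-fold below that of macrophages in MI (adjusted p = 5.11e-18 by edgeR) and 6.48-fold below it in SS (adjusted p = 5.74e-15).

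Cmklr1, which codes for the signalling chemerin receptor, was rarer and followed the macrophage side. It had 14.4, 13.96, 11.7 and 12.8 CPM in MI macrophages, against 22.5, 13.1, 16.9 and 17.1 CPM in SS macrophages (adjusted p = 0.725 by edgeR). In moDC it had 4.56, 5.94, 6.68 and 5.30 CPM after MI, against 12.5, 16.9, 9.53 and 13.6 CPM in SS. The moDC libraries did not overlap, and the lower level after MI did not pass in the model of all groups (log2 -1.23 ± 0.50 SE, adjusted p = 0.166 by edgeR). It passed when the groups compared were fitted alone (adjusted p = 0.0249 by edgeR) and with DESeq2 (adjusted p = 0.0260). In cDC2 it had 1.04, 0.0992 and 1.73 CPM after MI, against 2.65, 1.17, 4.27 and 2.99 CPM in SS, a difference of -1.52 on the log2 scale (adjusted p = 0.109 by edgeR and 0.0212 by DESeq2). In cDC1 there were 0 reads in the MI group, which allows up to 0.0742 CPM, and 5 reads in SS, all in replicate 2.

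Between cell types, moDC and macrophages did not differ in Cmklr1 past the threshold in MI (log2 -1.23, adjusted p = 0.114 by edgeR) or SS (adjusted p = 0.674). In MI the libraries of these groups did not overlap, and the lower level in moDC passed with DESeq2 (adjusted p = 0.0149) and with only the groups compared (adjusted p = 0.00284). The cDC2 level lay 5.80-fold below that of moDC in MI (adjusted p = 0.00573 by edgeR) and 4.74-fold below it in SS (adjusted p = 0.00283). The MI cDC1 level was at least 13-fold lower than that of MI cDC2, at least 75.6-fold lower than that of MI moDC and at least 177-fold lower than that of MI macrophages, against a floor of 3 reads over the group. Such floors cover counting error only, because PCR copies were not told apart by molecular identifiers. The gene overlaps the antisense gene Gm15736, and the use of strand in counting is not given, so reads of the pair cannot be told apart.

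Ffar2 codes for a receptor of acetate, propionate and butyrate, best known from neutrophils, and was a gene of cDC2 here. It had 26.0, 38.7 and 38.0 CPM in MI cDC2, against 2.65, 2.98, 0.328 and 2.53 CPM in SS cDC2. All 3 MI libraries stood above every SS library. The mean was 34.2 ± 7.15 CPM in MI cDC2 (n = 3) and 2.12 ± 1.21 CPM in SS cDC2 (n = 4), a 16.0-fold rise (log2 4.00 ± 0.95 SE, adjusted p = 0.00587 by edgeR). Leaving out any 1 library of these groups gave adjusted p between 0.0152 and 0.0322. The 6 neutrophil markers found summed to 0.659 to 2.02 CPM in MI cDC2 and 2.85 to 59.1 CPM in SS cDC2. In the MI cDC2 libraries S100a9, Camp and Ngp had 0 reads and S100a8 lay at 0 to 0.0963 CPM. Monocyte genes also differed between these groups. Of the 5 nonclassical monocyte markers, Ace averaged 25.3 CPM in MI cDC2 and 463 CPM in SS cDC2, and Treml4 averaged 12.1 CPM in MI and 192 CPM in SS, both without overlap. Eno3 averaged 67.7 CPM in MI and 203 CPM in SS, with overlap, and Spn and Nr4a1 overlapped too. The summed markers lay at 1804 to 2017 CPM in MI and 1840 to 3976 CPM in SS. The 6 classical monocyte markers summed to 136 to 251 CPM in MI cDC2 and 675 to 1068 CPM in SS cDC2. The part of these cells in the rise of Ffar2 was not tested.

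In moDC, Ffar2 had 2.72, 0.594, 2.99 and 1.5 CPM after MI, against 0, 0, 0 and 1.16 CPM in SS. The single SS library with reads was replicate 4, and the difference did not pass (log2 2.83 ± 1.01 SE, adjusted p = 0.114 by edgeR). It passed without that library (adjusted p = 0.00281) and against SS replicates 2 and 3 alone (adjusted p = 0.00807). In cDC1 there were 3 reads in the MI group and 6 in the SS group. Macrophages had 0 reads in all 8 libraries, which allows up to 0.0649 CPM in MI and 0.0725 CPM in SS. The MI cDC2 level was at least 526-fold higher than that of MI macrophages, and the SS cDC2 level at least 29.7-fold higher than that of SS macrophages, against the same floor of 3 reads. MI cDC2 also stood 17.4-fold above MI moDC (adjusted p = 0.00463 by edgeR). The step of SS cDC2 over SS moDC was close to the threshold (log2 2.95, adjusted p = 0.0481 by edgeR) and was lost in 6 of 8 fits that left out 1 library. With 0 reads in macrophages, the MI effect on Ffar2 cannot be compared with theirs. It was not shown to differ between cDC2 and moDC (log2 1.18, 95% interval -1.79 to 4.14, adjusted p = 0.844 by edgeR).

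Set beside each other, the 7 members gave 26 calls in 42 comparisons between cell types in MI and 29 of 42 in SS. For cDC1 over cDC2, 6 of 7 members passed in MI, all lower in cDC1, where 26.8% of all genes passed and 16.2% were lower. In SS 6 of 7 passed as well, all lower in cDC1, where 28.2% of all genes passed and 16.4% were lower. For cDC1 over moDC, 6 passed in MI (36% of all genes, 21% lower) and 5 in SS (33.3% of all genes, 18.9% lower), all lower in cDC1. For cDC1 over macrophages, 5 passed in MI (45.4% of all genes, 24.5% lower), all lower in cDC1, and 5 in SS (42.8%), where Ccr2 was higher and the other 4 lower in cDC1. For cDC2 over macrophages, 3 passed in MI (26.4% of all genes) and 6 in SS (35.2%). Ccr2, Cxcr4 and Ccrl2, the genes that rose in macrophages after infarction, passed in SS and not in MI. The change of this difference with infarction is the test of the MI effect in cDC2 over macrophages, which passed for Ccr2 and Cxcr4 and not for Ccrl2 (log2 -0.65, adjusted p = 0.115 by edgeR). For moDC over macrophages, 3 passed in MI (10.8% of all genes) and 4 in SS (12.9%). For cDC2 over moDC, 3 passed in MI (10.1% of all genes) and 3 in SS (15.4%), in both cases Cx3cr1, Cmklr1 and Ffar2.

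Counted over pairs of cell types, 7 differences in the MI effect passed, all of them between macrophages and another cell type. In each the log2 change was higher in macrophages. The differences were 1 of 7 members for moDC over macrophages, where 0.291% of all genes passed and 0.222% were lower. They were 2 members for cDC2 over macrophages (4.49% of all genes, 3.05% lower) and 4 for cDC1 over macrophages (4.04% of all genes, 3.23% lower). For cDC2 over moDC, cDC1 over cDC2 and cDC1 over moDC no member passed, where 0.905%, 4.21% and 1.79% of all genes did.

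Per kilobase of exon, which allows levels of different genes to be compared, Ccr2 was the most abundant of the 7 in all groups but SS macrophages. This order holds for the lengths of RefSeq-matched exons used here. Ccr2 made up 48.5% of the members' summed level per kilobase in MI macrophages and 18.4% in SS macrophages, where Cx3cr1 led with 44.8% and Ccrl2 followed with 22.6%. In cDC1 Ccr2 made up 92.3% of the sum in MI and 89.7% in SS. Ccrl2 was second in moDC and cDC2 of both states, at 345 ± 41.8 to 403 ± 26.4 CPM per kilobase. The Ccr2 length was 2999 bases, where the merged exons of all its listed transcripts span 6760 bases. For Ccrl2 both lengths are 2598 bases. The longer Ccr2 length would put it below Ccrl2 in SS moDC and in cDC2 of both states, and the annotation used in counting is not given.

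**Figure D4:**
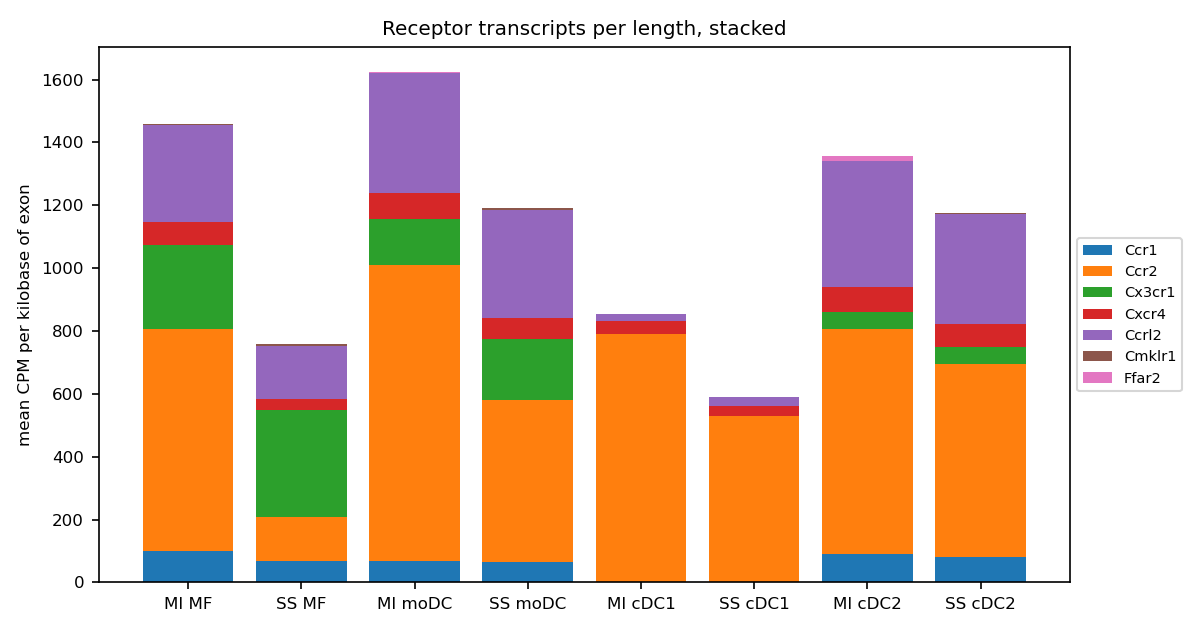
Mean CPM per kilobase of exon of the 7 receptors, stacked, in the 8 groups, with MI left of SS for each cell type. The stack of MI macrophages has Ccr2 as its largest piece (708 CPM per kilobase) and that of SS macrophages has Cx3cr1 (341 CPM per kilobase). Both cDC1 stacks are almost all Ccr2.

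Genes whose log2 CPM across the 31 libraries was most like each member were ranked among 8978 genes by Pearson's r. These values describe libraries that share cell types, and the points of 1 cell type lie together. Cx3cr1 was closest to Csf1r (r = 0.99), the receptor for macrophage colony-stimulating factor, and Tlr8 (0.99). Cmklr1 was closest to Apoe, Siglec1 and Sepp1 (0.97 each). Ccr1 was closest to Pltp (0.99), Clec4n (0.98) and Tmem176b (0.98), and Ccrl2 to Sirpb1a, Osm and Ptgs2 (0.98 each). Ccr2 was closest to the potassium channel gene Kcnn4 (0.92), Ndrg1 (0.88) and Sema4d (0.88). Cxcr4 was closest to Gyk (0.93), Ms4a4c (0.91) and the growth factor gene Vegfa (0.90), and Ffar2 to Msn (0.88), Zbtb18 (0.88) and Cyp7b1 (0.84).

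Among the members, the highest correlation over 31 libraries was that of Ccr1 with Cx3cr1 (r = 0.96), followed by Ccr1 with Ccrl2 (0.95). Ccr2 with Cx3cr1 had r = -0.26. With group means removed, no pair of members lay outside -0.35 to 0.19, so the high values describe differences between groups.

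Ligands, related receptors and signalling proteins of the pathway were counted in the same way. Of all genes tested, 3.37% fell in macrophages, 3.32% in moDC, 6.72% in cDC1 and 6.63% in cDC2, beside the 4.01%, 1.52%, 2.16% and 4.41% that rose. Of 10 ligand genes of the members, 1 rose and 0 fell in macrophages, 0 rose and 2 fell in moDC, 1 rose and 4 fell in cDC1, and 0 rose and 5 fell in cDC2. Their median log2 change was 0.10, -0.45, -1.14 and -1.72 in the same order of cell types (-1.61 in cDC2 with the gene at 0 reads held at its bound). The CCR1 ligand gene Ccl3 rose in macrophages (200 ± 57.2 CPM in MI and 96.4 ± 20.4 CPM in SS, 2.07-fold, adjusted p = 0.00442 by edgeR). The CCR2 ligand gene Ccl2 fell in cDC2 (19.0 ± 3.71 CPM in MI and 64.6 ± 12.0 CPM in SS, 3.40-fold lower, adjusted p = 2.67e-05) and in moDC (58.8 ± 10.3 CPM in MI and 101 ± 18.02 CPM in SS, 1.72-fold lower, adjusted p = 0.0454). Cxcl12, the CXCR4 ligand gene and a product of stromal and endothelial cells, fell in moDC, cDC1 and cDC2. The 5 mural markers were lower without overlap in moDC, at 12.5 to 15.7 CPM in MI against 31.8 to 269.5 CPM in SS. The same held in cDC1, at 0.102 to 2.76 CPM in MI against 68.6 to 253 CPM in SS. In cDC2 the mural sums overlapped, at 5.20 to 9.13 CPM in MI and 6.46 to 38.2 CPM in SS. The 4 fibroblast markers were lower in MI without overlap in all 3 cell types. They summed to 8.32 to 16.0 CPM in MI moDC and 19.3 to 38.9 CPM in SS moDC. In cDC1 the sums were 0 to 2.47 CPM in MI and 9.95 to 36.0 CPM in SS. In cDC2 they were 2.18 to 4.24 CPM in MI and 4.71 to 20.5 CPM in SS. The 5 endothelial markers were lower without overlap in moDC, at 50.6 to 75.1 CPM in MI and 84.7 to 283 CPM in SS. So they were in cDC1, at 4.14 to 9.15 CPM in MI and 31.1 to 169 CPM in SS. In cDC2 they overlapped, at 34.5 to 45.7 CPM in MI and 36.0 to 133 CPM in SS. The part of mural, fibroblast and endothelial cells in the result was not tested.

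Of 33 other chemoattractant receptor genes, 23 were tested, and 2 rose and 2 fell in macrophages, 1 rose and 2 fell in moDC, 0 rose and 3 fell in cDC1, and 4 rose and 4 fell in cDC2, with median log2 changes of -0.12, -0.29, -1.11 and -1.10. Cxcr3, for the receptor of interferon-induced chemokines, rose in macrophages (2.51-fold, adjusted p = 0.0211 by edgeR), moDC (3.68-fold, adjusted p = 0.00129) and cDC2 (2.47-fold, adjusted p = 0.0386). Of 20 signalling genes, 3 rose in macrophages, 1 in moDC, 1 in cDC1 and 3 in cDC2, and 1 fell, in cDC2, with median log2 changes between -0.03 and 0.07. Pik3r5, a regulatory subunit of the phosphoinositide kinase that acts below these receptors, rose in macrophages (2.61-fold, adjusted p = 7.36e-05 by edgeR), moDC (1.88-fold, adjusted p = 0.00885) and cDC2 (2.03-fold, adjusted p = 0.00282).

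Markers of other cells were measured beside the macrophage changes. The 6 classical monocyte markers summed to 1211 to 1640 CPM in MI macrophages and 1981 to 2911 CPM in SS macrophages. Most of that sum was F13a1, which averaged 1389 CPM in MI and 2360 CPM in SS. Other genes of the list were higher in MI, with Plac8 at 45.2 CPM in MI and 15.4 CPM in SS, Chil3 at 8.96 CPM in MI and 2.13 CPM in SS, and Vcan at 3.97 CPM in MI and 0.898 CPM in SS. Ly6c2, which defines classical monocytes, lay at 1.19 to 18.9 CPM in MI and 4.48 to 7.65 CPM in SS. The 10 macrophage markers did not all move the same way, and Cd163, Lyve1 and Folr2 were lower in MI without overlap. Cd163 averaged 129 CPM in MI and 511 CPM in SS, Lyve1 19.6 CPM in MI and 90.3 CPM in SS, and Folr2 204 CPM in MI and 560 CPM in SS. Fcgr1 and Mertk were higher in MI, also without overlap. The 6 dissociation and stress genes summed to 7581 to 10741 CPM in MI macrophages and 8079 to 20076 CPM in SS macrophages. Itgax, the gene of CD11c, which the sort selected against, lay at 23.9 to 61.9 CPM in MI macrophages and 5.20 to 11.3 CPM in SS macrophages. The 5 markers shared by dendritic cells, Itgax among them, summed to 37.6 to 82.6 CPM in MI macrophages and 10.3 to 19.3 CPM in SS macrophages. The part of these cells and of the stress genes in the changes of Ccr2, Cxcr4 and Ccrl2 was not tested.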

How the data were processed

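Per the labels' protocols, 4 ng of RNA from sorted cells was amplified with SMART-Seq v4 chemistry and sequenced on a NextSeq500 as single reads of 75 nt. The submitters' processing notes name SAMtools 0.1.18, TopHat2 2.1.0, Trimmomatic 0.35 and FastQC 0.11.4 and the build mm10. They name no counting tool, annotation or strand setting. The authors deposited 1 whole-number read count per gene symbol and sample, not normalized. Entries for reads in no gene (6.42% to 16.9% of a library) stayed out of library sizes and tests.

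Tests ran in R 4.3.3 with edgeR 4.0.16 (quasi-likelihood, robust, TMM factors, filterByExpr by group with a minimum count of 10), in 1 model of 8 group means fitted to 31 libraries. Comparisons were MI against SS in 4 cell types, 6 pairs of cell types within each state, the 6 differences of MI effects and an F test of all 4. P-values were adjusted over 13039 genes. The fit was tested on simulated data. Alternatives were RLE and upper-quartile factors, DESeq2 1.42.0, no filter, only the groups compared, replicate blocks, SS replicates by number and leaving out each library. Replicates differed by more than sampling noise in every group, by a chi-square of 10.5 or more per degree of freedom, and each counted as its own sample. Gene lengths and positions are from GENCODE M21 on GRCm38, and per-kilobase values use the merged exons of RefSeq-matched transcripts.

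The members and all lists were chosen with earlier results of these data known. All members are given in all comparisons, the 3 genes of highest r are named for each, and up to 3 called genes per list could be named. Some results that this rule would name are not reported here. Same-numbered libraries were taken as pairs where the deviations of every pair from their group means correlated above 0.1. That held for SS macrophages with SS moDC and with SS cDC2, which are 2 of 12 pairs of groups within a state, and in 0 of 4 pairs across states. By a looser measure, a library correlated best with the same-numbered library of the other group in 31 of 45 cases within a state. Across states it did so in 2 of 15. Shared preparation within a state may therefore reach beyond the 2 pairs of groups, and the main model held no block. The labels do not say that numbers mark a shared preparation.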

Additional observations from a re-analysis of the deposited data

Results flagged for a closer look

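Among these data, 3 sets of values held 1 library apart from the others, of 46 sets of a member in a group of 4. Chance gives about 1 in 20 for normally distributed values, which counts near 0 are not. Cmklr1 in SS cDC1 replicate 2 was the highest of its group at 0.474 CPM. Ffar2 in SS moDC replicate 4 was the highest of its group at 1.16 CPM, and Ffar2 in SS cDC2 replicate 3 was the lowest of its group at 0.328 CPM. For Cmklr1 in SS cDC1 and Ffar2 in SS moDC the other libraries had 0 reads, so any reads in a single library would be flagged.

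The effect of infarction differed between cell types in 7 cases by edgeR's test of the difference, all with the higher log2 change in macrophages. For Ccr2 the log2 difference from macrophages was -1.46 in moDC, -2.11 in cDC2 and -1.76 in cDC1. For Cxcr4 it was -1.01 in cDC2 and -0.80 in cDC1. For Ccr1 and Ccrl2 it was -2.20 and -1.02 in cDC1. The Ccr1 changes themselves, 0.53 in macrophages and -1.67 in cDC1, did not pass.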

How the results depend on the processing

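The 3 rises in macrophages, that of Ccr2 in moDC and that of Ffar2 in cDC2 passed under each alternative run for them. The count of changed members was 2 in moDC, cDC1 and cDC2 with DESeq2, 2 in moDC with only the groups compared, 2 in moDC and cDC1 against SS replicates 2 and 3, and 2 in moDC and 0 in cDC1 against SS replicates 1 and 4. A replicate block across states, where the numbers did not pair libraries, gave 2 changed members in moDC (Ffar2 added, adjusted p = 0.0412 by edgeR) and 2 in cDC1 (Ccr1 added, adjusted p = 0.0105). The block within SS changed no call in the 2 pairs of groups that met the rule for pairing. Within MI, where no pair of groups met it, the block added Ccr2 in cDC2 minus moDC (adjusted p = 0.0225 by edgeR). It also added Ccrl2 in MI cDC2 minus macrophages (adjusted p = 0.0156 by edgeR). Ccr1 in cDC1 also passed with DESeq2 (adjusted p = 0.00258) and against SS replicates 2 and 3 (adjusted p = 0.0198), and its difference from macrophages did not pass without the filter (adjusted p = 0.0762). Leaving out 1 library gave 3 changed members each time in macrophages, 1 to 2 in moDC, 1 to 2 in cDC1 and 1 each time in cDC2. It gave 25 to 26 calls between cell types in MI, 28 to 29 in SS, 5 to 8 pairwise differences of the MI effect and 2 to 4 by the F test.

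Log2 differences that changed sign had not passed the test with either sign. Ccr2 in MI cDC2 minus macrophages was -0.0071 with RLE factors, -0.0070 with upper-quartile factors, -0.0071 with DESeq2 and -0.0234 with a replicate block within state, and -0.0835 to 0.0647 over the fits that left out 1 library. Ccrl2 in SS cDC2 minus moDC was -0.0016 with upper-quartile factors and -0.0705 to 0.159 with 1 library left out. Against SS replicates 2 and 3, the MI effect was -0.24 for Ccr1 and -0.0021 for Ccrl2 in moDC, and -0.18 for Ccr1 in cDC2. Cxcr4 in SS cDC1 minus macrophages was 0.0214 with only the groups compared and -0.0919 to 0.0765 with 1 library left out. The other ranges with 1 library left out were -0.25 to 0.0421 for Ccr1 in MI cDC2 minus macrophages and -0.27 to 0.14 for Ccr1 in SS moDC minus macrophages. For Cxcr4 they were -0.12 to 0.0381 in MI cDC2 minus moDC and -0.00765 to 0.32 in SS cDC2 minus moDC, and for Ccr2 -0.0221 to 0.13 in SS cDC1 minus moDC. For the MI effect they were -0.13 to 0.25 for Ccr1 in moDC, -0.0512 to 0.30 for Ccr1 in cDC2 and -0.29 to 0.10 for Cx3cr1 in cDC2. Ffar2 in SS cDC1 minus moDC ran from -2.03 to 3.65, the upper end without SS moDC replicate 4, where the SS moDC group has 0 reads. The cause of these changes was not tested. Depth limits what can be said of Cmklr1 and Ffar2 in cDC1 and of Ffar2 in macrophages, with 0 to 6 reads in a group.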
